A study of Homo sapiens with 12 samples.

Results

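SK-LMS-1 cells given MK-0752 alone were compared directly with SK-LMS-1 cells given gemcitabine and docetaxel along with MK-0752 (the combination). All genes with enough counts to be tested were used. The comparison takes 4 of the 12 libraries of the study, which are libraries 2-2 and 2-3 after 72 h of MK-0752 alone and libraries 4-1 and 4-2 after 72 h of the combination. MK-0752 was given at its IC30, and the study's IC30 values for this line are 81.2 µM for MK-0752 alone and 8.03 µM within the combination, although the labels state no concentration. The arms thus differ both in the dose of MK-0752 and in the added drugs, and these cannot be told apart. The level without drug is shown from the 4 SK-LMS-1 libraries exposed to the DMSO vehicle, named 2-1 and 2-3 (DMSO set 2) and 4-1 and 4-2 (DMSO set 4). SK-LMS-1 is an established human cell line, labeled as uterine leiomyosarcoma (uLMS) and wild type, and the study sequenced bulk RNA after ribosomal RNA depletion. The labels do not state that libraries came from separate cultures, so the p-values measure only the spread between these libraries.

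MK-0752 inhibits gamma secretase, the membrane protease that cuts Notch receptors after ligand binding and so releases the fragment that turns on genes such as *HES1*. Gemcitabine is a nucleoside analog that stops DNA synthesis and depletes deoxynucleotides, while the taxane docetaxel blocks mitosis by stabilizing microtubules. Gamma secretase also cuts many membrane proteins other than Notch.

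Between 25585105 and 40709885 reads were counted on genes in the 8 SK-LMS-1 libraries, and 21114 of 60649 genes had enough counts to be tested. This filter used all 12 libraries, including those of the study's other cell line, SK-UT-1B. Genes without counts in SK-LMS-1, such as *DES*, are thus part of every share of all genes below. Such genes can neither pass the test nor separate the arms, which lowers these shares. With only the 8 SK-LMS-1 libraries 18754 genes were tested, and with only the libraries of the comparison 16985. Levels are in CPM, that is, counts divided by the library total and brought to a common scale, after scaling of the library sizes by edgeR's TMM method. A difference is the log2 fold change (log2FC) of MK-0752 alone minus the combination, so that positive values are higher after MK-0752 alone. Genes were called differentially expressed when the absolute log2FC was 1 or more and the adjusted p was under 0.05, and every adjusted p below is from the quasi-likelihood test of edgeR, adjusted by Benjamini-Hochberg over all genes tested. Libraries of 1 group differed more than read counting alone gives, since 242 genes had 0 counts in 1 MK-0752 library and at least 50 in the other, as did 54 genes in the combination libraries. The first number in the library name is 2 for both MK-0752 libraries and 4 for both combination libraries, the labels do not say what it stands for, and its part in the direct comparison cannot be told apart from that of the treatment. The DMSO libraries carry both numbers, and their levels are therefore given per set where a result rests on them.

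The arms differed in 13 genes. *TXNIP* alone was higher after MK-0752 alone (1 gene, 0.00474% of the genes tested), and 12 genes were lower (0.0568%), namely *FST*, *TFPI2*, *DMBT1*, *CEMIP*, *KISS1*, *TRPA1*, *HAS2*, *TEDC2*, *ARNT2*, *SMOX*, *LIF*, and *RGS2*. For all 13 genes the libraries of the arms did not overlap, which was also the case for 14.9% of all genes tested with MK-0752 above the combination and for 19.4% with MK-0752 below it. In all 12 lower genes both MK-0752 libraries were below the 4 DMSO libraries. For 7 of the 12 (*FST*, *TFPI2*, *DMBT1*, *CEMIP*, *KISS1*, *HAS2*, and *SMOX*) the combination libraries lay in between, below every DMSO library and above both MK-0752 libraries. This order was held by 0.862% of all genes tested. Part of it was fixed by the selection, since these genes were called for lower levels after MK-0752 alone. Of the 4100 genes with both MK-0752 libraries below the combination libraries, 182 held the order. For the other 5 (*TRPA1*, *TEDC2*, *ARNT2*, *LIF*, and *RGS2*) the combination libraries overlapped the DMSO libraries. Both MK-0752 libraries lay outside the DMSO range, above or below it, for 17.1% of all genes and both combination libraries for 11.4%. Of the 21114 genes tested, 1625 had both MK-0752 libraries below all 4 DMSO libraries. Both combination libraries were below them for 710 genes, so neither position is particular to the called genes.

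**Figure D1:**
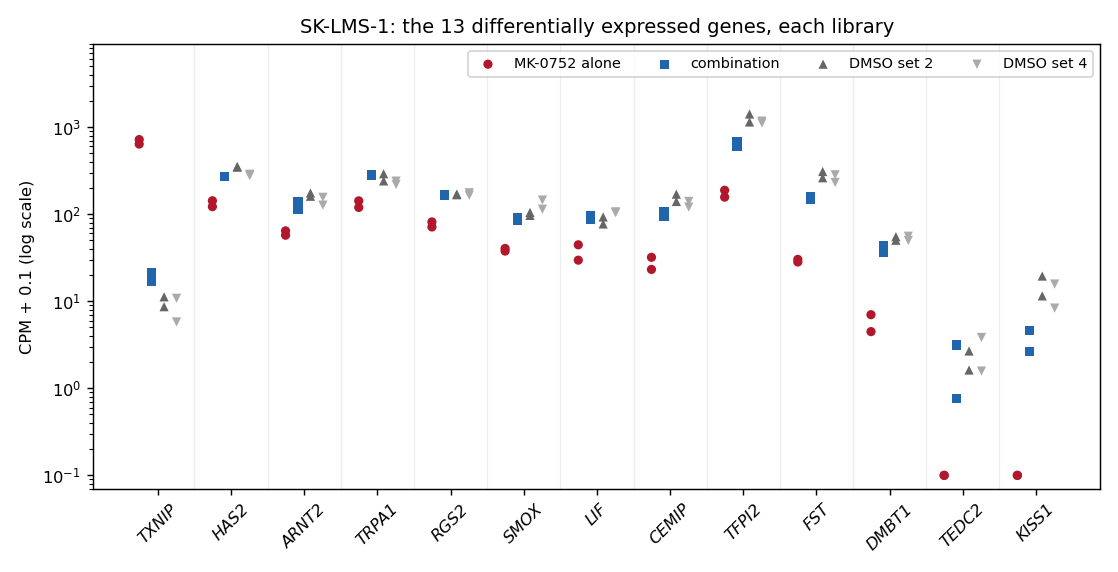
Level of the 13 differentially expressed genes in each SK-LMS-1 library, as CPM + 0.1 on a log scale, with circles for MK-0752 alone, squares for the combination, and triangles for DMSO set 2 and DMSO set 4. *TXNIP* was higher in both MK-0752 libraries than in any other library, and the other 12 genes were lower in both MK-0752 libraries than in any other library.

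*TXNIP* encodes thioredoxin-interacting protein, an alpha-arrestin that binds thioredoxin and limits glucose uptake. Its level was 718 and 638 CPM in the MK-0752 libraries, 16.9 and 21.4 CPM in the combination libraries, 11.1 and 8.55 CPM in DMSO set 2, and 5.68 and 10.7 CPM in DMSO set 4. Both MK-0752 libraries were far above all others, and the combination libraries were slightly above the DMSO libraries without overlap. The log2FC between the arms was 5.15 (SE 0.33, 95% interval 4.44 to 5.86, adjusted p = 1.91e-05), which is a 35.5-fold difference. Leaving out any 1 of the 4 treated libraries gave a log2FC between 4.98 and 5.33, and the call held each time. The gene (ENSG00000265972) lies at chr1:145992435-145996579 on the minus strand of hg38, and no annotated gene overlaps it. The rise relative to DMSO set 2 was called after MK-0752 alone (log2FC 6.10, adjusted p = 4.79e-06), whereas that of the combination relative to DMSO set 4 was not (log2FC 1.21, adjusted p = 0.80).

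*ARRDC4*, the alpha-arrestin closest to *TXNIP* in its known control by glucose through the factors MondoA and MLX, had 49.6 and 34.1 CPM after MK-0752 alone, 13.1 and 8.17 CPM after the combination, and 4.14 to 9.46 CPM in the DMSO libraries. The MK-0752 libraries did not overlap the others, but the log2FC of 1.98 (SE 0.42, 95% interval 1.09 to 2.87) did not pass the test (adjusted p = 0.13), whereas it did in 4 of the 11 alternative settings, DESeq2 among them, and in none with a library left out. In the list of 8 alpha-arrestins and MondoA-MLX genes, *TXNIP* was the 1 member called, 2 had an unadjusted p under 0.05 in this direction, which 0.862% of all genes had, and the median log2FC was 0.10 beside 0 for all genes tested. Without combination library 4-1 the median of the list turned to -0.05. The factors themselves did not pass the test, with a log2FC of -0.31 for *MLXIP*, which encodes MondoA, and -0.12 for *MLX*.

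The promoters of *TXNIP* and *ARRDC4* are shown because these were the alpha-arrestins with the highest log2FC between the arms, beside that of *HES1*, the Notch target that the study used to choose its treatments. Each is the 250 bases before the annotated start from RefSeq on GRCh38.p14, read 5′ to 3′ on the gene's own strand, at chr1:145996580-145996829 (minus strand) for *TXNIP*, chr15:97960453-97960702 (plus strand) for *ARRDC4*, and chr3:194135898-194136147 (plus strand) for *HES1*. Capitals mark CACGAG in *TXNIP* and CACGTG in *ARRDC4*, letters that occur in the carbohydrate response elements bound by MondoA and MLX, and TGGGAA in *HES1*, the core letters bound by the Notch factor RBPJ.
TXNIP: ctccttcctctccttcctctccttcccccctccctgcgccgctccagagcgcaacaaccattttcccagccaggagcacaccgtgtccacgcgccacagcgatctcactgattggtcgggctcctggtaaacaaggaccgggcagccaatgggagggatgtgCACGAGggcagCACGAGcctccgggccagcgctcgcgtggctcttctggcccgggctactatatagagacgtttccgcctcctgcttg
ARRDC4: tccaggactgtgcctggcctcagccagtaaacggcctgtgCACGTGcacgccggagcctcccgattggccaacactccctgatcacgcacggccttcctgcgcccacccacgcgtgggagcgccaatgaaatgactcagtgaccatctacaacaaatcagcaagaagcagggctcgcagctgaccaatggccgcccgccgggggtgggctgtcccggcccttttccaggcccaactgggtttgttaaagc
HES1: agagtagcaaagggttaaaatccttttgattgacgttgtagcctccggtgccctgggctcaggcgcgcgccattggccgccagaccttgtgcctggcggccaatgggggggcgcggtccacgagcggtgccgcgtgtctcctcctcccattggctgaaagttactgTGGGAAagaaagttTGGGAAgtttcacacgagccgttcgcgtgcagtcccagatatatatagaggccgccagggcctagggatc

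Motifs were searched on both strands. The *TXNIP* window held CACGAG at 88 to 83 and at 77 to 72 bases before the start, the *ARRDC4* window held CACGTG at 210 to 205 bases before it, and the *HES1* window held TGGGAA at 84 to 79 and 70 to 65 bases before it. Of 35116 promoter windows of the same length, 6.34% held CACGTG, 5.58% CACGAG, 11.5% either of them, and 20.8% TGGGAA. The *HES1* window also held CACGAG and the *TXNIP* window also held TGGGAA, both left in lower case. A second RefSeq window of *TXNIP*, at chr1:145995745-145995994, held none of the motifs. A promoter window was found for 8 of the 13 differentially expressed genes, and of the 7 with lower levels after MK-0752 alone, 0 held CACGTG, 0 held CACGAG, and 3 held TGGGAA. These matches describe letters in a window and were not tested as binding sites.

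**Figure D2:**
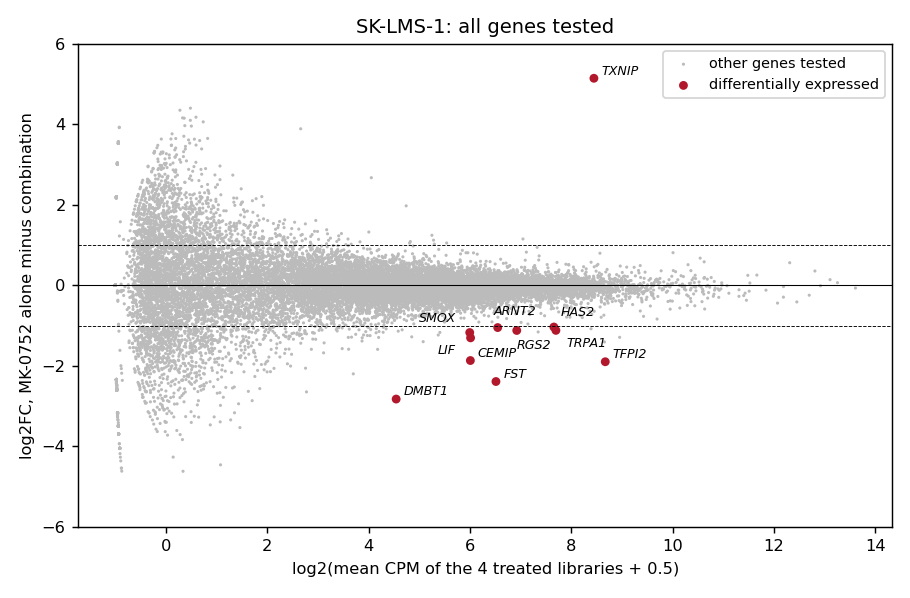
Each tested gene by its mean level in the 4 treated libraries, as log2(CPM + 0.5), and the log2FC of MK-0752 alone minus the combination, with differentially expressed genes in red, dashed lines at a log2FC of 1 and -1, and 2382 genes left out because 1 arm was at the floor of 3 counts, among them *KISS1* and *TEDC2*. *TXNIP* is the single red point above 0, and the spread of the gray points widens at low levels.

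*FST* and *TFPI2*, which encode secreted inhibitors, had the smallest p-values among the lower genes. *FST* encodes follistatin, which binds and blocks activins. Its level was 30.1 and 28.1 CPM after MK-0752 alone, 159 and 147 CPM after the combination, 309 and 262 CPM in DMSO set 2, and 283 and 231 CPM in DMSO set 4. The MK-0752 libraries held 10.7% of the mean DMSO level and the combination libraries 56.3%, with no overlap between MK-0752, combination, and DMSO. The log2FC between the arms was -2.39 (SE 0.18, 95% interval -2.78 to -2.0, adjusted p = 5.95e-06). *TFPI2* encodes tissue factor pathway inhibitor 2, an inhibitor of serine proteases in the matrix, and had 188 and 157 CPM after MK-0752 alone, 607 and 677 CPM after the combination, and 1116 to 1412 CPM in the DMSO libraries. These values fall in the same order, and the log2FC was -1.90 (SE 0.18, 95% interval -2.27 to -1.53, adjusted p = 1.71e-05). *FST* lies at chr5:53480626-53487134 and *TFPI2* at chr7:93885396-93890753, where *GNGT1* overlaps it on the other strand. The strand setting of the counts was not given in the sources used here, so reads of overlapping genes may have been shared. Both calls held with any 1 treated library left out.

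*DMBT1* and *CEMIP* showed the same order of the groups. *DMBT1*, which encodes a secreted scavenger receptor protein of mucosal defense (chr10:122560665-122643736), had 4.38 and 6.90 CPM after MK-0752 alone, 36.6 and 43.4 CPM after the combination, and 49.8 to 55.7 CPM in the DMSO libraries. The combination libraries were close to the DMSO level, at 76.0% of its mean, and the MK-0752 libraries were at 10.7%. The log2FC was -2.83 (SE 0.32, 95% interval -3.50 to -2.15, adjusted p = 4.86e-04), and the call held with any 1 treated library left out. *CEMIP* encodes a hyaluronan-binding protein needed for hyaluronan breakdown (chr15:80779343-80951776, overlapping *MESD* and further genes on the other strand). Its level was 23.1 and 31.8 CPM after MK-0752 alone, 94.0 and 106 CPM after the combination, and 120 to 169 CPM in the DMSO libraries. Its log2FC was -1.87 (SE 0.23, adjusted p = 8.07e-04), and the call was lost without MK-0752 library 2-2 (adjusted p = 0.0657).

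*KISS1* and *TEDC2* had 0 counts in both MK-0752 libraries. *KISS1*, which encodes the precursor of the kisspeptins (chr1:204190341-204196491), had 84 and 111 counts after the combination, or 2.52 and 4.56 CPM, and 8.24 to 19.3 CPM in the DMSO libraries. Taking 3 counts in each MK-0752 library as the floor, its level was at least 42.7-fold lower after MK-0752 alone than after the combination (adjusted p = 0.00618), and the call was lost without either MK-0752 library. *TEDC2*, which encodes a tubulin epsilon and delta complex protein of the centriole (chr16:2460086-2464963, overlapped by *TEDC2-AS1*), had 101 and 16 counts after the combination and 1.48 to 3.73 CPM in the DMSO libraries. It was at least 22.3-fold lower by the same floor (adjusted p = 0.0137), a bound that is 7.93 from combination library 4-2 on its own, the combination libraries differed from each other by more than those of the other lower genes, and, with 1 treated library left out, the call held only without combination library 4-2. The calls of both genes were also lost with a mean of at least 50 counts and with only the libraries of the comparison. That of *TEDC2* was lost with only the 8 SK-LMS-1 libraries as well. The bounds of both genes cover counting error only, since the counts carry no molecular identifiers.

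The remaining 6 called genes had levels that were 2.05-fold to 2.47-fold lower after MK-0752 alone. *HAS2*, a hyaluronan synthase, had 142 and 122 CPM after MK-0752 alone, 272 and 270 CPM after the combination, and 277 to 353 CPM in the DMSO libraries (log2FC -1.03, SE 0.16, adjusted p = 0.0119). *TRPA1*, a cation channel that senses irritants, had 142 and 119 CPM after MK-0752 alone, 287 and 280 CPM after the combination, and 220 to 291 CPM in the DMSO libraries (log2FC -1.12, SE 0.17, adjusted p = 0.0119). The combination libraries of *TRPA1* were thus within the range of DMSO, whereas those of *HAS2* were just below it. *SMOX*, which encodes the polyamine-degrading enzyme spermine oxidase (chr20:4120980-4187747), had 37.6 and 40.3 CPM, 83.9 and 91.6 CPM, and 96.6 to 145 CPM in these groups (log2FC -1.17, SE 0.21, adjusted p = 0.0346). *LIF*, a cytokine of the interleukin 6 family (chr22:30240453-30246759, overlapped by antisense genes), had 29.5 and 44.3 CPM, 86.6 and 95.8 CPM, and 77.1 to 106 CPM (log2FC -1.30, SE 0.24, adjusted p = 0.0398). As for *TRPA1*, the combination libraries of *LIF* lay inside the DMSO range.

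*RGS2*, a regulator that shortens G protein signaling (chr1:192809039-192812275), had 81.3 and 71.1 CPM after MK-0752 alone, 168 and 163 CPM after the combination, and 164 to 176 CPM in the DMSO libraries (log2FC -1.12, SE 0.21, adjusted p = 0.0447). *ARNT2*, a partner of basic helix-loop-helix PAS transcription factors (chr15:80404350-80597933), had 57.2 and 64.2 CPM, 139 and 112 CPM, and 127 to 175 CPM (log2FC -1.05, SE 0.18, adjusted p = 0.0236). The MK-0752 libraries were the lowest in each case, and 1 of the combination libraries of *ARNT2* lay below DMSO. On the other strand, *HAS2-AS1* overlaps *HAS2* and *MSC-AS1* overlaps *TRPA1*, and *RGS2* and *ARNT2* are overlapped there too. The calls of *HAS2*, *TRPA1*, *SMOX*, *LIF*, *RGS2*, and *ARNT2* were each lost whenever any 1 of the 4 treated libraries was left out, with the log2FC between -0.88 and -1.63 throughout. All of these calls except that of *HAS2* were also lost with a mean of at least 50 counts.

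A further 3 genes had an adjusted p under 0.05 with a difference of less than 2-fold. *COL1A1*, which encodes the alpha 1 chain of type I collagen, had 1278 and 1348 CPM after MK-0752 alone, 768 and 726 CPM after the combination, and 676 to 772 CPM in the DMSO libraries (log2FC 0.81, SE 0.13, adjusted p = 0.0137). *H3C2*, a replication-dependent histone H3 gene, had 47.3 and 52.6 CPM, 87.5 and 88.2 CPM, and 83.2 to 93.8 CPM in these groups (log2FC -0.82, SE 0.15, adjusted p = 0.0345). *FBN2*, which encodes the microfibril protein fibrillin-2 and was chosen here after its values were seen, had 618 and 571 CPM, 1127 and 997 CPM, and 975 to 1065 CPM (log2FC -0.84, SE 0.15, adjusted p = 0.0345). In each of the 3 genes the combination libraries were close to DMSO and the MK-0752 libraries stood apart. None of the 3 kept an adjusted p under 0.05 when 1 treated library was left out. Over all genes, 182 had an unadjusted p under 0.05 with higher levels after MK-0752 alone and 575 with lower levels, which became 71 to 175 and 301 to 498 when 1 treated library was left out, and 636 and 943 with only the libraries of the comparison.

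The Notch pathway was compared because gamma secretase is the target of MK-0752 in both arms. *HES1*, a transcriptional repressor and the Notch target by whose fall in qPCR the study chose the treatments, had 3.14 and 3.80 CPM after MK-0752 alone, 3.82 and 1.35 CPM after the combination, 21.5 and 25.5 CPM in DMSO set 2, and 19.2 and 34.8 CPM in DMSO set 4. The arms overlapped, and both were below every DMSO library. Relative to its own DMSO set, *HES1* fell by 2.76 on the log2 scale after MK-0752 alone (adjusted p = 0.015) and fell by 3.37 after the combination (adjusted p = 0.023), values that are no independent evidence of direction, as the treatments were chosen on this gene. Between the arms the log2FC was 0.42 with a 95% interval from -0.60 to 1.43 (adjusted p = 1.0). Differences inside this interval were thus not excluded, and the dose of MK-0752 was not the same in the arms. Without combination library 4-2 the log2FC turned to -0.14.

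Of the Notch target genes, 9 were tested, 0 were called, and 0 had an unadjusted p under 0.05. Their median log2FC was -0.31 between the arms, but -0.75 between the DMSO sets and 0.16 for the difference of the effects from each DMSO set. With 1 treated library left out, the median between the arms ranged from -0.88 to 0. *NRARP*, a feedback inhibitor of Notch, had 5 and 33 counts after MK-0752 alone and 30 and 25 counts after the combination, and *HES4* had 33 and 17 counts and 62 and 55 counts. At such counts the intervals of the log2FC were wide, from -2.92 to 1.15 for *NRARP* and from -4.42 to 1.29 for *HES4*. The summed level of the list was 10.1 to 10.7 CPM after MK-0752 alone, 10.2 to 14.5 CPM after the combination, and 29.6 to 52.6 CPM in the DMSO libraries.

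Among 9 receptors and ligands, 0 were called. At an unadjusted p under 0.05, 1 had higher levels after MK-0752 alone (0.862% of all genes) and 1 had lower levels (2.72%). The higher member was *NOTCH3*, whose value rests on 1 library, and the lower member was *JAG1*. The receptors *NOTCH1* and *NOTCH2* had nearly equal levels in both arms. *NOTCH2* had 591 and 639 CPM after MK-0752 alone and 636 and 627 CPM after the combination, with 516 to 585 CPM in the DMSO libraries (log2FC -0.04, 95% interval -0.32 to 0.24). *NOTCH1* had 24.5 and 40.8 CPM and 38.2 and 27.6 CPM (log2FC -0.01, 95% interval -0.54 to 0.52). The arms overlapped for both receptors, and differences within these intervals were not excluded. *NOTCH3* had 41 and 0 counts after MK-0752 alone, 0 counts in both combination libraries, and 91 to 165 counts in the DMSO libraries, so its value between the arms rests on 1 library. Without that library, MK-0752 library 2-2, its log2FC was 0. The ligand *JAG1* had 127 and 117 CPM after MK-0752 alone, 181 and 161 CPM after the combination, and 158 to 185 CPM in the DMSO libraries (log2FC -0.49, adjusted p = 1.0). The ligand *DLL4* had 2.24 and 1.85 CPM, 5.59 and 6.48 CPM, and 11.9 to 23.8 CPM (log2FC -1.56, 95% interval -3.14 to 0.02). In the list of 11 genes of gamma secretase and its substrates, 0 were called and 0 had an unadjusted p under 0.05, with a median log2FC of 0.09 that was 0.05 without combination library 4-2 and 0.20 without MK-0752 library 2-2.

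The histone, DNA replication, and mitosis lists held 0 called genes, and their median log2FC values lay below 0. Of 49 replication-dependent histone genes tested, 0 were called, 18 had an unadjusted p under 0.05 with lower levels after MK-0752 alone, beside 2.72% of all genes tested, and 0 with higher levels. The arms did not overlap for 31 of the 49 with MK-0752 below, beside 19.4% of all genes, and the median log2FC was -0.56. *H1-5*, a linker histone gene, had 86.3 and 105 CPM after MK-0752 alone, 191 and 181 CPM after the combination, and 188 to 238 CPM in the DMSO libraries (log2FC -0.96, SE 0.18, adjusted p = 0.0712). *H3C8* had 26.1 and 25.5 CPM, 55.9 and 60.2 CPM, and 52.4 to 76.1 CPM (log2FC -1.17, SE 0.25, adjusted p = 0.138). For both genes the MK-0752 libraries were below all others and the combination libraries were near DMSO. Of the 11 alternative settings, *H3C8* was called in 4, DESeq2 among them, and *H1-5* in 1, the replicate block. These genes are nearly identical in sequence within each histone class, so counts of single members are uncertain. The median of the list was -0.23 for the difference of the effects and -0.19 between the DMSO sets. The summed level of the list was 1505 to 1514 CPM after MK-0752 alone, 2082 to 2193 CPM after the combination, and 1897 to 2633 CPM in the DMSO libraries, so that the DMSO libraries differed among themselves by as much as the arms did. In bulk RNA, fewer cells in S phase and less histone RNA per cell cannot be told apart.

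**Figure D3:**
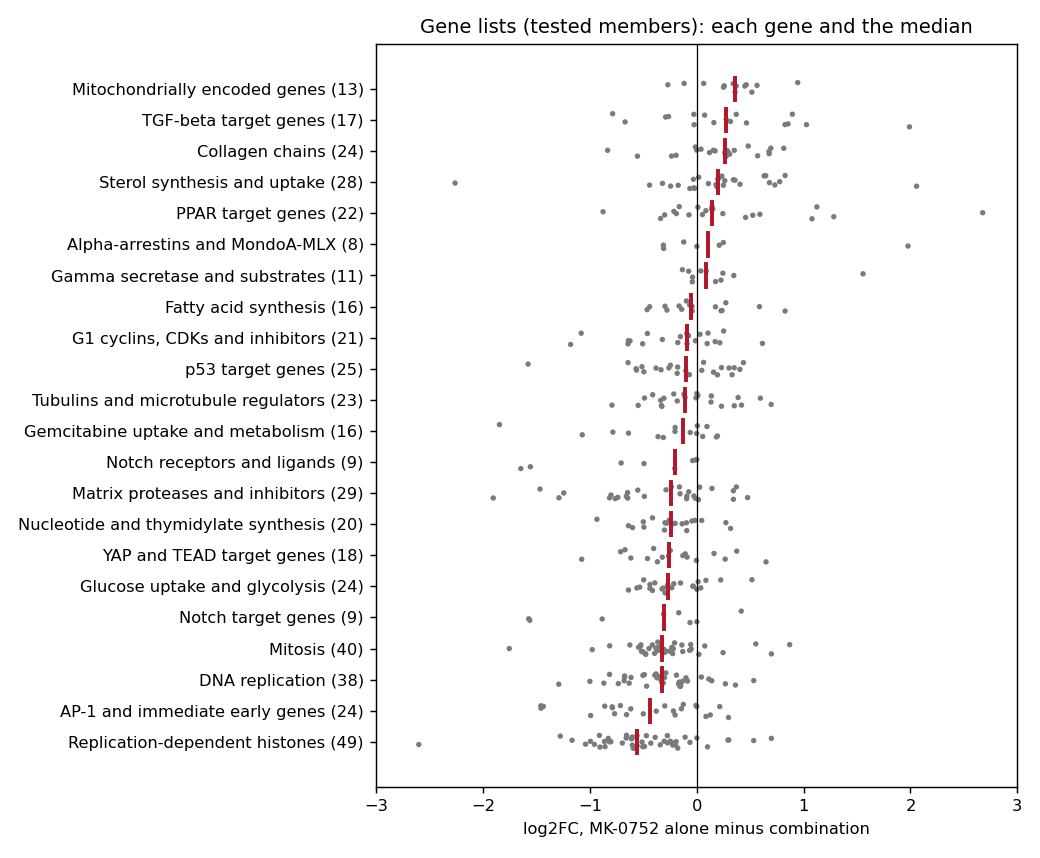
Log2FC of MK-0752 alone minus the combination for the tested members of 22 gene lists (number tested in brackets), with each gene as a point, the median of each list as a red bar, and 7 members lying beyond the axis. Among the 22 lists drawn, of 43 computed, the medians of the replication-dependent histones, AP-1, DNA replication, and mitosis lists are the lowest, and that of the mitochondrially encoded genes is the highest, while among the lists not drawn the chemokines and NF-kappaB targets, which include *LIF*, have a median of -0.37 and the leukocyte markers, with 4 genes tested, one of 0.89.

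Of 38 DNA replication genes, 10 had an unadjusted p under 0.05 and lower levels after MK-0752 alone (2.72% of all genes), 0 had higher levels at that p, 0 were called, and the median log2FC was -0.33. *ORC1*, a subunit of the origin recognition complex, had 6.28 and 7.17 CPM after MK-0752 alone, 15.02 and 17.97 CPM after the combination, and 10.7 to 22.04 CPM in the DMSO libraries (log2FC -1.29, SE 0.34, adjusted p = 0.39), and was called in 1 of the 11 alternative settings, that with no filter beyond 1 count. *MCM5* and *MCM2*, subunits of the replicative helicase, had 32.0 to 34.5 and 29.9 to 30.9 CPM after MK-0752 alone and 52.8 to 53.6 and 47.0 to 50.4 CPM after the combination (both log2FC -0.68). For *MCM2* the DMSO sets differed as well (log2FC -0.38), with 36.5 and 48.4 CPM in set 2 and 56.9 and 53.4 CPM in set 4, and its difference of effects was -0.30. The MK-0752 libraries did not overlap the combination libraries for 19 of the 38 genes with MK-0752 below (19.4% of all genes). *RRM2*, the regulatory subunit of ribonucleotide reductase, the enzyme that gemcitabine inhibits, had 106 and 83.8 CPM after MK-0752 alone, 150 and 146 CPM after the combination, and 198 to 217 CPM in the DMSO libraries (log2FC -0.64, SE 0.17, adjusted p = 0.39). *TK1*, the thymidine kinase of S phase, had 9.54 and 10.6 CPM and 17.7 and 20.9 CPM in the arms, but its DMSO sets differed too, with 14.3 and 20.9 CPM in set 2 and 27.2 and 36.4 CPM in set 4, and its difference of effects was -0.08 on the log2 scale. Of the 20 nucleotide synthesis genes, 4 had an unadjusted p under 0.05 with lower levels (2.72% of all genes), and 0 were called.

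The 40 mitotic genes had a median log2FC of -0.32, and 5 of them had an unadjusted p under 0.05 with lower levels after MK-0752 alone (2.72% of all genes). *MKI67*, the proliferation marker, had 194 and 196 CPM after MK-0752 alone, 311 and 259 CPM after the combination, and 350 to 397 CPM in the DMSO libraries (log2FC -0.55, 95% interval -0.85 to -0.25, adjusted p = 0.37). *CCNB1*, the mitotic cyclin B1, had 40.4 and 50.2 CPM, 61.4 and 67.2 CPM, and 94.0 to 101 CPM (log2FC -0.50, adjusted p = 1.0). Both genes had the order of MK-0752 alone lowest, the combination next, and DMSO highest, without overlap. *AURKB*, the kinase of the chromosomal passenger complex, had 9.65 and 13.4 CPM, 26.3 and 19.1 CPM, and 23.4 to 28.0 CPM (log2FC -0.98, SE 0.36, adjusted p = 1.0). Among 21 G1 cyclins, CDKs, and inhibitors, 6 had an unadjusted p under 0.05 with lower levels (2.72% of all genes) and 0 with higher, including *CCND1* (cyclin D1), with 1185 and 1108 CPM after MK-0752 alone, 1638 and 1622 CPM after the combination, and 1475 to 1610 CPM in the DMSO libraries (log2FC -0.51, adjusted p = 0.27). With 1 treated library left out, the members at an unadjusted p under 0.05 with lower levels numbered 8 to 11 histone genes, 5 to 8 DNA replication genes, 1 to 4 mitotic genes, 2 to 4 G1 genes, and 2 nucleotide synthesis genes.

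Genes tied to the drugs added in the combination did not pass the test either. Of 23 tubulins and microtubule regulators, 2 had an unadjusted p under 0.05, both with lower levels after MK-0752 alone (2.72% of all genes). *TUBB4B*, a beta tubulin, had 219 and 259 CPM after MK-0752 alone, 332 and 367 CPM after the combination, and 292 to 351 CPM in the DMSO libraries (log2FC -0.55, adjusted p = 0.39). *TUBB6*, another beta tubulin, had 195 and 193 CPM, 260 and 285 CPM, and 264 to 309 CPM (log2FC -0.49, adjusted p = 0.70). The combination libraries of both were near DMSO. Of 16 genes of gemcitabine uptake and metabolism, 2 had an unadjusted p under 0.05, *RRM2* and *DCK*, both with lower levels (2.72% of all genes). Without combination library 4-2, 1 had lower levels at that p, and without MK-0752 library 2-2, 1 had lower and 1 had higher levels. *DCK*, the kinase that activates gemcitabine, had 12.7 and 16.5 CPM after MK-0752 alone, 24.9 and 25.4 CPM after the combination, and 14.04 to 31.02 CPM in the DMSO libraries (log2FC -0.79, 95% interval -1.46 to -0.12, adjusted p = 1.0). *SLC29A1*, the nucleoside transporter that takes gemcitabine up, had 49.9 and 52.3 CPM and 56.6 and 74.9 CPM (log2FC -0.36, 95% interval -0.77 to 0.04). Its log2FC was -0.15 without combination library 4-2 and -0.55 without library 4-1. In the p53 target list 0 of 25 genes were called, 2 had an unadjusted p under 0.05 with higher levels after MK-0752 alone (0.862% of all genes), and 3 with lower levels (2.72%), which became 0 to 3 and 0 to 2 when 1 treated library was left out. *CDKN1A*, which encodes the cell cycle inhibitor p21, had 32.8 and 49.9 CPM after MK-0752 alone, 58.2 and 71.2 CPM after the combination, and 50.2 to 55.7 CPM in the DMSO libraries (log2FC -0.64, 95% interval -1.18 to -0.11, adjusted p = 1.0). The log2FC of *CDKN1A* was -0.37 without MK-0752 library 2-2 and -0.98 without library 2-3.

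Of 22 PPAR target genes, 6 had an unadjusted p under 0.05 with higher levels after MK-0752 alone (0.862% of all genes), 4 to 5 when 1 treated library was left out, and 0 with lower levels, with 0 calls and a median log2FC of 0.14, which was 0.06 without combination library 4-2 and 0.21 without MK-0752 library 2-2. *ANGPTL4*, which encodes an inhibitor of lipoprotein lipase, had 21.1 and 34.6 CPM after MK-0752 alone, 2.85 and 5.87 CPM after the combination, and 0.487 to 2.695 CPM in the DMSO libraries (log2FC 2.68, SE 0.77, 95% interval 1.06 to 4.30, adjusted p = 0.61). *PLIN2*, a lipid droplet coat protein gene, had 49.5 and 55.8 CPM, 27.6 and 20.6 CPM, and 18.1 to 29.1 CPM (log2FC 1.12, SE 0.27, adjusted p = 0.23). *CPT1A*, the gate of mitochondrial fatty acid uptake, had 96.2 and 105 CPM, 65.2 and 68.6 CPM, and 53.8 to 61.6 CPM (log2FC 0.59, adjusted p = 0.76). For all of these genes the MK-0752 libraries were above every other library. *PDK4*, a kinase that turns off pyruvate dehydrogenase, had 329 and 462 counts after MK-0752 alone, 12 and 27 counts after the combination, and 16 to 117 counts in the DMSO libraries (log2FC 3.89, 95% interval 0.05 to 7.73, adjusted p = 1.0). Of the 11 alternative settings, *ANGPTL4* and *PLIN2* were called in 3 each and *PDK4* in 2, none of them with a library left out.

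*SCD*, the stearoyl-CoA desaturase, had 1902 and 1887 CPM after MK-0752 alone, 1260 and 1264 CPM after the combination, and 826 to 909 CPM in the DMSO libraries (log2FC 0.59, SE 0.12, 95% interval 0.33 to 0.84, adjusted p = 0.0932). Its order was the reverse of that of *FST*, with MK-0752 alone highest, the combination next, and DMSO lowest, without overlap. The sterol regulator *INSIG1* had 168 and 185 CPM, 101 and 97.8 CPM, and 52.95 to 87.1 CPM in these groups (log2FC 0.83, SE 0.22, adjusted p = 0.39). *HMGCS1*, an early enzyme of cholesterol synthesis, had 58.3 and 38.9 CPM, 33.4 and 25.1 CPM, and 15.3 to 22.1 CPM (log2FC 0.73, adjusted p = 1.0). Its log2FC was 0.41 without MK-0752 library 2-2 and 0.99 without library 2-3. Of 28 sterol genes, 6 had an unadjusted p under 0.05 with higher levels (0.862% of all genes) and 1 with lower levels, 14 had both MK-0752 libraries above the combination libraries (14.9% of all genes), and 0 were called. The 6 became 1 to 4 when 1 treated library was left out. In the fatty acid synthesis list, which holds *SCD* and also *INSIG1*, 16 genes were tested. Of these, 6 had a positive and 10 a negative log2FC, with a median of -0.06. *SCD* and *INSIG1* were the 2 members with an unadjusted p under 0.05, both with higher levels (0.862% of all genes). Among 24 genes of glucose uptake and glycolysis, 4 had an unadjusted p under 0.05 with lower levels after MK-0752 alone (2.72% of all genes) and 0 with higher levels, and 1 to 4 had lower levels at that p when 1 treated library was left out. With the replicate block, 9 of the 24 had lower levels at that p, beside 648 of all 21114 genes. With only the 8 SK-LMS-1 libraries, 10 had, beside 720 of 18754 genes. The median log2FC of the 24 genes was -0.27 between the arms (-0.46 with the replicate block), -0.14 for the difference of the effects, and -0.16 between the DMSO sets. They included *SLC2A1*, the glucose transporter GLUT1, with 73.8 and 94.7 CPM after MK-0752 alone, 124 and 139 CPM after the combination, and 129 to 159 CPM in the DMSO libraries (log2FC -0.64, adjusted p = 0.95), and *HK2*, a hexokinase (log2FC -0.50, adjusted p = 0.95).

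Of the 13 mitochondrially encoded genes, 4 had an unadjusted p under 0.05 with higher levels after MK-0752 alone, 10 had both MK-0752 libraries above the combination libraries (14.9% of all genes), and 0 were called. The 4 became 1 to 2 when 1 treated library was left out, beside 0.862% of all genes with every library. *MT-ND1*, a subunit of complex I, had 1427 and 1551 CPM after MK-0752 alone, 1041 and 1043 CPM after the combination, and 1072 to 1239 CPM in the DMSO libraries (log2FC 0.51, SE 0.13, adjusted p = 0.29). With no filter beyond 1 count, 8 members had higher levels at an unadjusted p under 0.05, beside 312 of 30051 genes. With only the 8 SK-LMS-1 libraries, 9 had higher and 1 had lower levels at that p, beside 352 and 720 of 18754 genes. The median log2FC of the list was 0.36 between the arms (0.21 with the replicate block), 0.35 for the difference of the effects, and -0.05 between the DMSO sets. The share of mitochondrial reads also moves with the quality of the RNA and of the cells, whose part was not tested.

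Collagens and matrix proteases were described as separate lists, and the difference between the lists was not tested. Of 24 collagen chains, 12 had both MK-0752 libraries above the combination libraries (14.9% of all genes) and 2 below (19.4%). Their median log2FC was 0.27, which became 0.11 without MK-0752 library 2-3 and 0.18 without combination library 4-2. At an unadjusted p under 0.05, 2 had higher levels (0.862% of all genes), namely *COL1A1* and *COL1A2*. *COL1A2*, the partner chain of *COL1A1* in type I collagen, had 1840 and 1837 CPM after MK-0752 alone, 1192 and 1107 CPM after the combination, and 1108 to 1313 CPM in the DMSO libraries (log2FC 0.68, SE 0.13, adjusted p = 0.0612). Among 29 matrix proteases and inhibitors, 5 had an unadjusted p under 0.05 with lower levels (2.72% of all genes), 3 to 4 when 1 treated library was left out, 1 had higher levels at that p, and 0 were called. *ADAMTS1*, a protease that cuts proteoglycans, had 306 and 293 CPM, 503 and 497 CPM, and 466 to 536 CPM (log2FC -0.74, SE 0.14, adjusted p = 0.0793). *LOX*, which crosslinks collagen, had 248 and 243 CPM, 332 and 343 CPM, and 352 to 465 CPM (log2FC -0.46, adjusted p = 0.86). *TIMP3*, a metalloprotease inhibitor, had 30.0 and 35.6 CPM, 65.3 and 49.2 CPM, and 38.7 to 51.0 CPM (log2FC -0.80, adjusted p = 0.95). The MK-0752 libraries were lowest for each of these genes, while those of both type I collagen genes were highest.

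Of 24 AP-1 and immediate early genes, including feedback regulators of ERK signaling, 7 had an unadjusted p under 0.05 with lower levels (2.72% of all genes), 5 to 6 when 1 treated library was left out, and 0 with higher levels, the median log2FC was -0.44, and 0 were called. The median was -0.20 for the difference of the effects and -0.18 between the DMSO sets. *DUSP6*, a phosphatase that turns off ERK, had 50.03 and 49.1 CPM after MK-0752 alone, 86.0 and 83.0 CPM after the combination, and 81.9 to 101 CPM in the DMSO libraries (log2FC -0.77, SE 0.17, adjusted p = 0.13). *DUSP5*, its nuclear counterpart, had 32.3 and 33.5 CPM, 63.4 and 56.1 CPM, and 75.3 to 90.1 CPM (log2FC -0.86, adjusted p = 0.63). *ETV4*, a transcription factor induced by ERK, had 11.6 and 7.66 CPM, 17.4 and 21.01 CPM, and 13.2 to 20.6 CPM (log2FC -0.99, adjusted p = 0.40). The 3 genes had no overlap between the arms, and the combination libraries of *DUSP5* were below DMSO as well. Of 18 YAP and TEAD target genes, 0 were called and 4 had an unadjusted p under 0.05 with lower levels (2.72% of all genes), 1 to 3 when 1 treated library was left out, among them *CCN1*, a matricellular protein gene, with 218 and 213 CPM, 441 and 469 CPM, and 604 to 717 CPM (log2FC -1.08, SE 0.33, adjusted p = 0.97), and *CCN2*, its relative, with 77.6 and 72.3 CPM, 117 and 122 CPM, and 147 to 184 CPM (log2FC -0.67, adjusted p = 0.39). Both had the order of *FST*, and *CCN1* was called in 4 of the 11 alternative settings, DESeq2 among them.

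The TGF-beta target list held genes in both directions, with 3 at an unadjusted p under 0.05 and higher levels after MK-0752 alone (0.862% of all genes), 2 with lower levels (2.72%), and 0 calls among 17. *ID3*, an inhibitor of differentiation factors and a target of BMP signaling, had 45.9 and 58.3 CPM after MK-0752 alone, 27.6 and 23.5 CPM after the combination, and 29.2 to 43.1 CPM in the DMSO libraries (log2FC 1.03, SE 0.23, adjusted p = 0.18). Here the DMSO libraries lay between the arms, and the gene was called in 3 of the 11 alternative settings, DESeq2 among them. *INHBA*, which encodes the activin A subunit that follistatin binds, had 187 and 165 CPM, 310 and 298 CPM, and 332 to 378 CPM (log2FC -0.79, SE 0.18, adjusted p = 0.18). *STC1*, which encodes the secreted hormone stanniocalcin-1, belongs to the IGF axis list and not to the TGF-beta target list. In the IGF axis list 15 genes were tested and 0 were called. Of these, 9 had a positive and 4 a negative log2FC, with a median of 0.11. *STC1* had 227 and 214 CPM, 555 and 614 CPM, and 711 to 808 CPM (log2FC -1.41, SE 0.37, adjusted p = 0.81). The gap between the arms of *STC1* was wider than for several called genes, yet it did not pass the test, and it was called in 2 of the 11 alternative settings, neither of them with a library left out. *IGFBP5*, a binding protein of insulin-like growth factors, was higher than its own DMSO set in both arms, with 276 and 262 CPM after MK-0752 alone (adjusted p = 0.0017), 226 and 209 CPM after the combination (adjusted p = 0.0041), and 82.3 to 129 CPM in the DMSO libraries. Its log2FC between the arms was 0.31 with a 95% interval from -0.04 to 0.65.

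To take the first library number into account, the effect of MK-0752 relative to DMSO set 2 was compared with the effect of the combination relative to DMSO set 4. This difference of the effects was called in *TXNIP* with a higher value (1 gene, 0.00474%) and in 7 genes with a lower value (0.0332%), of which 6 were also lower in the direct comparison, namely *FST*, *TFPI2*, *DMBT1*, *CEMIP*, *KISS1*, and *HAS2*. *TXNIP* had a difference of effects of 4.90 (SE 0.42, adjusted p = 5.45e-04) beside 5.15 in the direct comparison, and *FST* had -2.54 (SE 0.25, adjusted p = 2.62e-04) beside -2.39. *TFPI2* had -2.06 (adjusted p = 5.45e-04), *DMBT1* -2.82 (adjusted p = 0.0204), *CEMIP* -2.12 (adjusted p = 0.0155), and *HAS2* -1.34 (adjusted p = 0.0355). In these genes the difference was thus of a like size when each arm was referred to the DMSO libraries with its own first number. With each of the 8 SK-LMS-1 libraries left out in turn, the calls of *TXNIP*, *FST*, and *TFPI2* held all 8 times, whereas those of *DMBT1* and *CEMIP* held 2 times, that of *KISS1* 1 time, and that of *HAS2* 0 times. *TRPA1* (-1.33, adjusted p = 0.0722), *ARNT2* (-1.29, adjusted p = 0.111), *TEDC2* (adjusted p = 0.114), *RGS2* (-1.11, adjusted p = 0.47), *LIF* (-0.997, adjusted p = 0.89), and *SMOX* (-0.81, adjusted p = 0.91) did not pass in this comparison. The 7th gene, *MAP2K6*, which encodes a kinase upstream of p38, had 27 and 38 counts after MK-0752 alone, 51 and 13 counts after the combination, and 42 and 18 with DMSO set 2, but it was at 0 in both libraries of DMSO set 4 (adjusted p = 0.0473). The arms overlapped for *MAP2K6*, and its call rests on the zeros in DMSO set 4 and held 2 of the 8 times with 1 library left out.

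**Figure D4:**
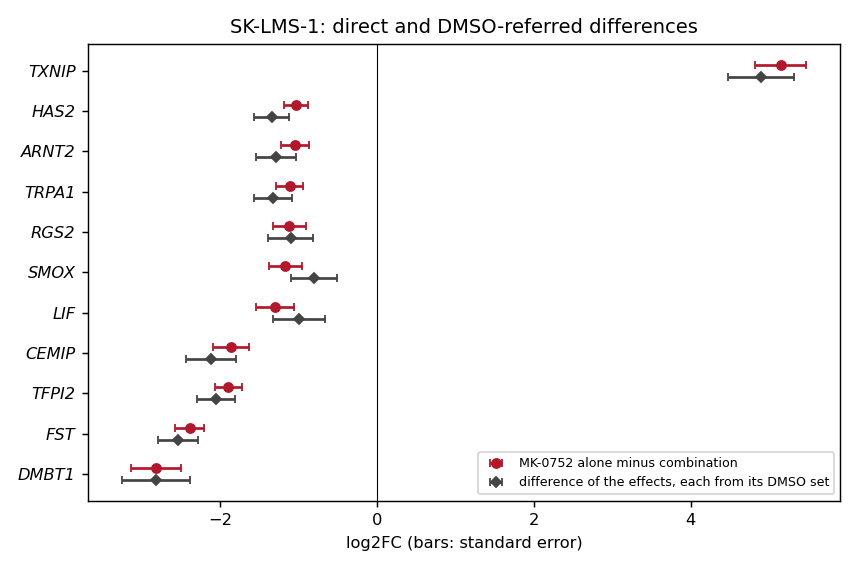
Log2FC of MK-0752 alone minus the combination (circles) and difference of the effects, each from its own DMSO set (diamonds), for the differentially expressed genes other than *KISS1* and *TEDC2*, with standard errors as bars. Both values have the same sign for each gene, and the diamonds of *SMOX* and *LIF* lie nearest to 0, at -0.81 and -0.997.

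Without drug, DMSO set 2 and DMSO set 4 differed in 0 genes by edgeR, although 1197 genes had an unadjusted p under 0.05, and DESeq2 called 33. The difference between the sets in the genes called between the arms was small for *TXNIP* (log2FC 0.25), *FST* (0.15), *TFPI2* (0.16), *DMBT1* (-0.01), *CEMIP* (0.25), *RGS2* (-0.01), *TRPA1* (0.21), and *ARNT2* (0.245). It was larger for *KISS1* (0.36, SE 0.73), *SMOX* (-0.36, SE 0.21), *TEDC2* (-0.34, SE 0.76), *HAS2* (0.31, SE 0.16), and *LIF* (-0.31, SE 0.23). These estimates had the same direction as the arms for *SMOX*, *TEDC2*, and *LIF*, and the opposite direction for *KISS1* and *HAS2*, but none of them passed the test. Among the lists, the collagen chains (0.27 between the arms, 0.32 for the effects, -0.10 between the DMSO sets) and the mitotic genes (-0.32, -0.39, and 0.08) had medians of the same sign and a like size in the comparisons between the arms and between the effects. DNA replication genes had -0.33, -0.24, and -0.07 in the same order.

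**Figure D5:**
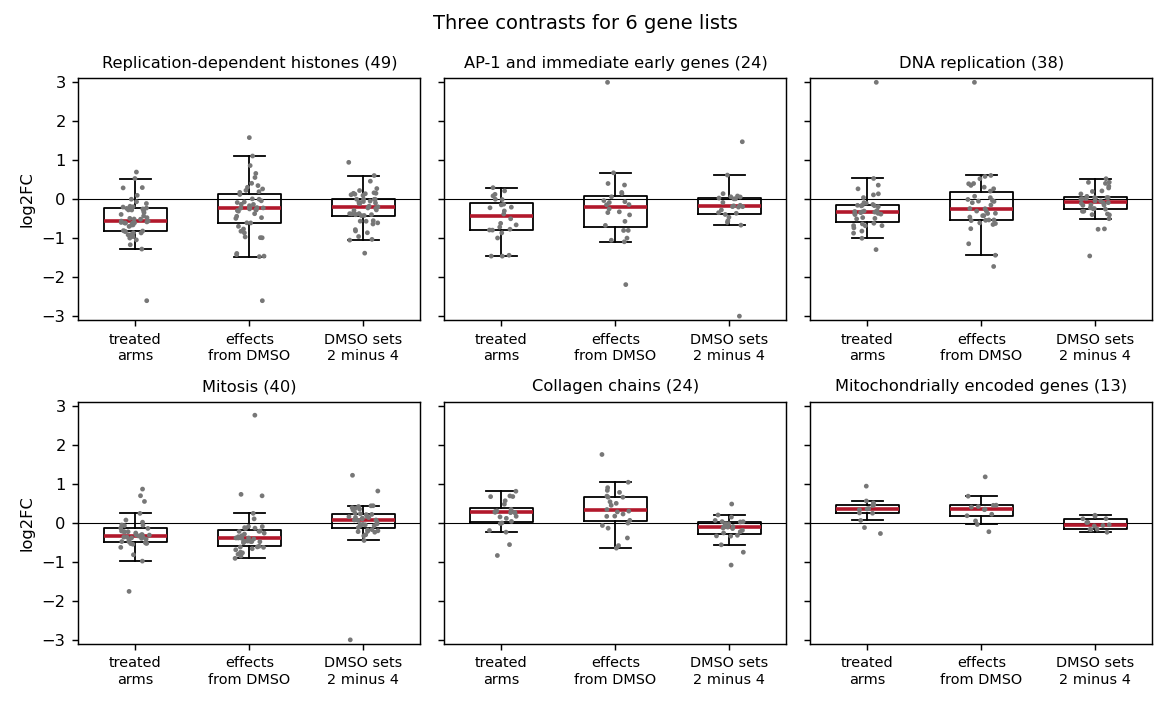
Log2FC of the tested members of 6 gene lists (number in brackets) for MK-0752 alone minus the combination (treated arms), for the difference of the effects from each DMSO set, and for DMSO set 2 minus DMSO set 4, with boxes from the lower to the upper quartile, red lines at the median, whiskers to the last point within 1.5 box lengths, and 5 points drawn at the edge of the axis. From the treated arms to the effects, the medians of the histone (-0.56 to -0.23), AP-1 (-0.44 to -0.20), and DNA replication (-0.33 to -0.24) lists move toward 0, that of the mitochondrially encoded genes stays nearly level (0.36 to 0.35), and those of the mitotic and collagen genes move away from 0.

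Markers of cell types were compared beside these results. Of 9 smooth muscle markers, *DES* (desmin) had 0 counts in all 8 SK-LMS-1 libraries and *MYH11*, the smooth muscle myosin heavy chain, at most 5, so that these defining markers were at or near 0. Their summed level was 1330 to 1350 CPM after MK-0752 alone, 1050 to 1150 CPM after the combination, and 1050 to 1120 CPM after DMSO, most of it from *MYLK* and *CALD1*. In the whole list of 17 smooth muscle genes, 16 were tested, 8 had a positive and 7 a negative log2FC with a median of 0.06, and the summed levels overlapped, at 13510 to 14970 CPM, 14430 to 14730 CPM, and 13480 to 14650 CPM in these groups. *MYLK*, a myosin light chain kinase that other cells also express, had 748 and 789 CPM, 577 and 515 CPM, and 452 to 528 CPM (log2FC 0.49, 95% interval -0.18 to 1.17), and *ACTA2* had 35.1 and 24.5 CPM, 19.8 and 14.8 CPM, and 14.7 to 22.9 CPM (log2FC 0.78, 95% interval -0.02 to 1.58). The log2FC of *ACTA2* was 0.50 without MK-0752 library 2-2 and 1.02 without library 2-3. *CNN1* (calponin 1) and *SMTN* (smoothelin) lay in the other direction without overlap of the arms, with 9.20 to 9.97 and 123 to 132 CPM after MK-0752 alone and 13.4 to 15.2 and 151 to 165 CPM after the combination. Of 5 epithelial markers, *CDH1* was at 0 in every library, and the sum was 163 to 178 CPM after MK-0752 alone, 235 to 242 CPM after the combination, and 214 to 264 CPM after DMSO, with *KRT18* at 64.3 and 72.3 CPM and at 118 and 119 CPM in the arms. Of 5 leukocyte markers *CD3E* had at most 1 count and the sum stayed at or below 5.22 CPM, and the sum of 3 endothelial markers stayed at or below 9.40 CPM. The whole list of 8 endothelial genes summed to 54.72 to 68.96 CPM after MK-0752 alone, 68.98 to 76.12 CPM after the combination, and 73.67 to 97.81 CPM after DMSO, and 0 of its 6 tested genes had an unadjusted p under 0.05. The part of these markers in the differences between the arms was not tested.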

How the data were processed

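RNA of 12 libraries was sequenced by the authors. Per the labels and the study's methods, reads were trimmed with Trim Galore 0.3.7, aligned to hg38 with STAR 2.7.9a, and freed of ribosomal RNA with SortMeRNA, and the authors deposited raw counts of reads per gene, without normalization. DESeq2 1.42.0 is also listed in the submitters' notes. The annotation and strand setting were not given in the sources used here. The table held 60649 genes, of which 30598 were at 0 in every library.

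All 12 libraries, in 6 groups of 2, entered edgeR 4.0.16 (R 4.3.3) with TMM, filterByExpr, and a robust quasi-likelihood fit, which left 21114 genes. The contrasts were MK-0752 minus the combination, the difference of their effects from DMSO sets 2 and 4, and DMSO set 2 minus set 4. P-values were adjusted over all genes tested. The test was checked on simulated data. Total counts per library lay between 25250057 and 40709885, so that 3 counts, the floor, correspond to 0.0777 to 0.123 CPM in the SK-LMS-1 libraries.

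Genes were named by a rule that takes the 15 highest and 15 lowest called genes with a mean of at least 100 counts and no overlap between the arms, filled up to 10 by the smallest p, every gene called in the difference of the effects, the leading members of each gene list, and a panel of pathway genes, and some of these are not reported here. *TEDC2* and *FBN2* lie outside the rule and were chosen after their values were seen. The members and lists were chosen with earlier results of these data known. Names and coordinates are from GENCODE v44, which matched 21068 of the genes tested, 16984 of them in the same version, and promoters are from RefSeq. The alternatives were DESeq2, its size factors in edgeR, every gene with at least 1 count, only genes averaging 50 counts or more, the 8 SK-LMS-1 libraries or those of the comparison alone, a replicate block, and each library left out. Medians of gene lists under these settings were added after seeing the data.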

Additional observations from a re-analysis of the deposited data

Results flagged for a closer look

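In 8 genes the effect of MK-0752 alone, relative to DMSO set 2, differed from the effect of the combination, relative to DMSO set 4, by edgeR's quasi-likelihood test of the difference with Benjamini-Hochberg adjustment. The difference of the log2FC values was 4.90 for *TXNIP*, -2.54 for *FST*, -2.06 for *TFPI2*, -2.82 for *DMBT1*, -2.12 for *CEMIP*, and -1.34 for *HAS2*, and the direct difference between the arms was called in each of them. It was -10.20 for *KISS1* and -8.14 for *MAP2K6*, where a group had 0 counts in both libraries, so that these fitted values depend on the prior count and are no measure of size. *KISS1* was at 0 in both MK-0752 libraries, and *MAP2K6* was at 0 in both libraries of DMSO set 4, which is a group without drug.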

How the results depend on the processing

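*TXNIP*, *FST*, *TFPI2*, and *DMBT1* were called between the arms under all 11 alternatives. The counts of called genes varied with the processing, and the cause was not tested. Between the arms, 1 gene was higher and 12 were lower, beside 6 and 35 by DESeq2, 20 and 62 with no filter beyond 1 count, 1 and 5 with a mean of at least 50 counts, 9 and 31 with only the 8 SK-LMS-1 libraries, and 6 and 17 with only the libraries of the comparison. For the difference of the effects, 1 gene was higher and 7 were lower, beside 11 and 29 by DESeq2, 34 and 55 with no filter, 1 and 2 with a mean of at least 50 counts, and 7 and 20 with the 8 SK-LMS-1 libraries. Between the DMSO sets, 0 genes were called, beside 22 and 11 by DESeq2, 40 and 36 with no filter, and 1 and 0 with the 8 libraries. With 1 library left out, which leaves a group with 1 library assumed to vary like the others, the genes between the arms numbered 1 to 2 higher and 4 to 8 lower, those of the effects 1 to 11 and 2 to 13, and those of the DMSO sets 0 to 26 and 0 to 13.

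The replicate block gave 1 higher and 20 lower genes between the arms, with *HAS2* and *TRPA1* no longer among them, 4 higher and 11 lower for the effects, and 2 higher and 3 lower between the DMSO sets. The labels do not say what the second library number stands for, MK-0752 and the combination share only the number 2, and libraries of DMSO set 4 and the combination with the same number did not deviate together (Pearson r = -0.011 across 14372 genes, which are not independent).

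Among the 78 genes compared across the alternatives, the log2FC between the arms changed sign for 4, none of which was called. For *NOTCH1* it was 0.0145 by DESeq2, 0.0142 with its size factors, 0.0173 with no filter, 0.0243 with a mean of at least 50 counts, 0.0213 with the 8 SK-LMS-1 libraries, and 0.0150 with the libraries of the comparison. With 1 library left out, the range was -0.14 to 1.36 for *HES1*, -0.77 to 0.74 for *MAP2K6*, -0.4254 to 0.3099 for *NOTCH1*, and -0.0968 to 0.0161 for *NOTCH2*. The median ranged from -0.0509 to 0.1679 for the alpha-arrestins and from -0.1719 to 0.0444 for the p53 targets. A gene at 0 counts in both libraries gives only a bound, as for *KISS1* and *TEDC2*, and the part of depth was not tested.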
